A study of Homo sapiens with 38 samples.

Results

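A set of 9 named genes of the neural crest and of the glial state, SOX10, SOX9, MIA, NGFR, S100B, TFAP2A, TFAP2B, SOX2 and SOX5, were followed across a melanoma cell line, a drug-resistant clone of it and 7 treatments. The genes were listed by name, and every probe set of the array that names one of them and no other gene was read, which gave 22 probe sets for 9 of the 19775 genes named on the array. Of these, 20 passed the filter on low values (a signal above 34.88, the median of all values, on at least 2 of 38 arrays), and all 9 genes were among the 18063 genes tested. The list was chosen by name with measured values in view, namely the signals of its members in DMSO-treated parental and resistant cells, so the difference between the lines in DMSO is given here as a description without a test.

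The parental line was A375, an established human melanoma line, and the clone was A375 16R6-4, a single clone of A375 resistant to GSK2118436 (GSK436, dabrafenib), an inhibitor of RAF kinases. Both were grown with 10% serum and held for 24 h in DMSO, 0.1 or 1 µM GSK436, 10 or 30 nM GSK1120212 (GSK212, trametinib, an inhibitor of MEK), or 10 nM GSK212 together with 0.1 or 1 µM GSK436. Of 18 parental arrays, DMSO, 10 nM GSK212 and both combinations had 3 each, and 30 nM GSK212 and both doses of GSK436 alone had 2 each. The 20 resistant arrays comprised 2 for DMSO and 3 for each other treatment, each array being 1 sample of total RNA on a 1-colour expression array. Nothing in the labels says whether replicates were separate cultures, so p-values measure only the spread between these arrays, which may be technical. The combination with 0.1 µM GSK436 is called the lower and that with 1 µM the higher combination. One resistant clone stands for resistance here, so a difference between the lines may belong to the clone.

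SOX10 is a transcription factor that neural crest cells need and that melanocytes and Schwann cells keep; its known targets include genes of both lineages. SOX9 and SOX5 are related factors of the same family, active in crest formation and in cartilage, SOX2 is a factor of stem and neural progenitor cells, and TFAP2A and TFAP2B are AP-2 factors that specify the crest. MIA is a small protein secreted by melanoma cells, NGFR is the low-affinity neurotrophin receptor and a surface marker of crest-like cells, and S100B is a calcium-binding protein of glia and melanocytes; loss of SOX10 with low differentiation genes is a known state of melanoma cells under RAF inhibitors.

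The promoters of the 3 members that differed most clearly between lines or with drug and that had an entry among the RefSeq promoter sequences (GRCh38.p14) follow as the 250 bases before the annotated start, 5′ to 3′ on the gene's strand. Capitals mark every match, on either strand, to one of 3 SOX cores, which are spelled ACAAAG, the closely related ACAATG, and the form AACAAT. They also mark matches to the AP-2 element, spelled GCCNNNGGC, and to the E-box that MITF can bind, spelled CATGTG. Overlapping matches run together, and the first SOX5 run holds a pair of overlapping SOX cores on the opposite strand.
MIA, chr19:40774910-40775159, plus strand: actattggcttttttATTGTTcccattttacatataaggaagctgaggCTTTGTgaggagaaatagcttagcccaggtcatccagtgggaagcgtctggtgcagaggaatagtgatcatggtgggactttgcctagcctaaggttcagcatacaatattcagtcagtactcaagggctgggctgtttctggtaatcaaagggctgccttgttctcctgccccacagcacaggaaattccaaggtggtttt
SOX2, chr3:181711675-181711924, plus strand: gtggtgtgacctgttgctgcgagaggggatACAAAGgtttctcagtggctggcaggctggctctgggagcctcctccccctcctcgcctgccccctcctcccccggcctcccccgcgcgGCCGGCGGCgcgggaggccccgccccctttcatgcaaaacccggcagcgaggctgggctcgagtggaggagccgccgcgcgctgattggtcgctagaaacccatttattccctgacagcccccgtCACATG
SOX5, chr12:24562492-24562741, minus strand: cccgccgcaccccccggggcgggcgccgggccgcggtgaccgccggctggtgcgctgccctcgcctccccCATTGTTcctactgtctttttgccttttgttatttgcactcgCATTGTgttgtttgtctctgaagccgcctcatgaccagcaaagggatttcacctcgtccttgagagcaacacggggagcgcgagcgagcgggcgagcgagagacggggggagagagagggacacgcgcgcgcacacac
The first base of the MIA matches lies 235 and 202 bases before the start, that of the SOX2 matches 220, 131 and 6 bases before it, and those of SOX5 lie 180, 179 and 138 bases before it. Among all 35116 promoters of this length, 25.6% hold at least 1 of the 3 SOX cores, 19.8% hold the AP-2 element and 9.42% hold the E-box, so such matches are common. A second MIA promoter, chr19:40775271-40775520 on the plus strand, held AACAAT 244 bases before its start and no other of these letters. The TFAP2B promoter held AACAAT 114 bases before the start, neither TFAP2A promoter held any of these letters, and neither the CRE element, spelled TGACGTCA (1.65% of promoters), nor the AP-1 element, spelled TGANTCA (6.57%), was found in any of these windows. SOX10, SOX9, NGFR and S100B had no entry.

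The arrays were deposited scaled to 1 common trimmed mean, but differed in other respects. The ratio of the 3-prime to the 5-prime actin control probe sets, a measure of RNA quality in which higher means more degraded or shorter product, ran from 3.72 to 45.0 and was above 20 on 9 parental and 6 resistant arrays. Its mean was lowest in the DMSO groups (7.76 parental, 5.47 resistant) and reached 37.3 in the parental cells with 0.1 µM GSK436. The median signal per array ran from 21.6 to 52.4. Replicate arrays of a group correlated at 0.888 to 0.956 over 34 pairs. With drug the median of all genes rose by 0.31 on the log2 scale in parental and by 0.16 in resistant cells as deposited, and it became -0.26 in both once the arrays were centred to equal medians (called centring), so drug changes are to be read beside that shift.

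SOX10 was high on all 18 parental arrays and near the floor of the array on all 20 resistant ones. In parental DMSO cells its signal was 560.1, 427 and 601, and in resistant DMSO cells it was 2.47 and 2.38. With drug the parental values ran from 654 to 1414 and the resistant ones from 1.96 to 21.0. The lowest parental array stood 20.4-fold above the highest resistant array, and no resistant array exceeded the filter level, so SOX10 passed the filter only through its parental level and the size of the difference rests on where the floor lies. With every resistant value raised to the filter level, a bound set after the data were seen, parental SOX10 with drug was at least 28.4-fold higher. All changes and differences on the log2 scale are of log2(signal + 2.8), which understates changes of low signals. Gaps between the lines and bounds, given as folds, were taken on signals without that addition.

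The resistant clone had lower SOX10 in each of the 6 drug treatments, by -6.38 to -7.50 on the log2 scale, and the mean over the 6 was -6.83 ± 0.23 (SE, each treatment counting equally). Over 13 other processing settings that mean ran from -7.53 to -4.61. The difference in DMSO was -6.66 ± 0.58, given without a test. It was known when the list was chosen, so the differences with drug are not independent of that choice. A second SOX10 probe set, with parental signals of 12.7 to 123 and resistant ones of 1.85 to 45.3, overlapped between lines and showed a smaller difference of -2.39 ± 0.31 over the drug treatments (limma over probe sets, adjusted p = 5.2e-08).

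MIA followed the same order. Its signal was 1459, 1393 and 1983 in parental DMSO cells and 17.4 and 9.61 in resistant DMSO cells. With drug it ran from 1803 to 3993 in parental cells and from 4.89 to 73.2 in resistant cells, the lines being separated by a gap of 19.0-fold. The mean difference with drug was -6.93 ± 0.20 (adjusted p = 2.51e-24, limma with Benjamini-Hochberg adjustment over 18063 genes) and ran from -7.20 to -5.53 over 13 other settings. Of 18 resistant arrays with drug 3 exceeded the filter level, so this size too rests on the floor; with the others raised to that level parental MIA was at least 68.3-fold higher. The DMSO difference was -6.65 ± 0.52 and was known when the list was chosen. The difference with drug, between the same lines, is therefore not independent of that choice.

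**Figure D1:**
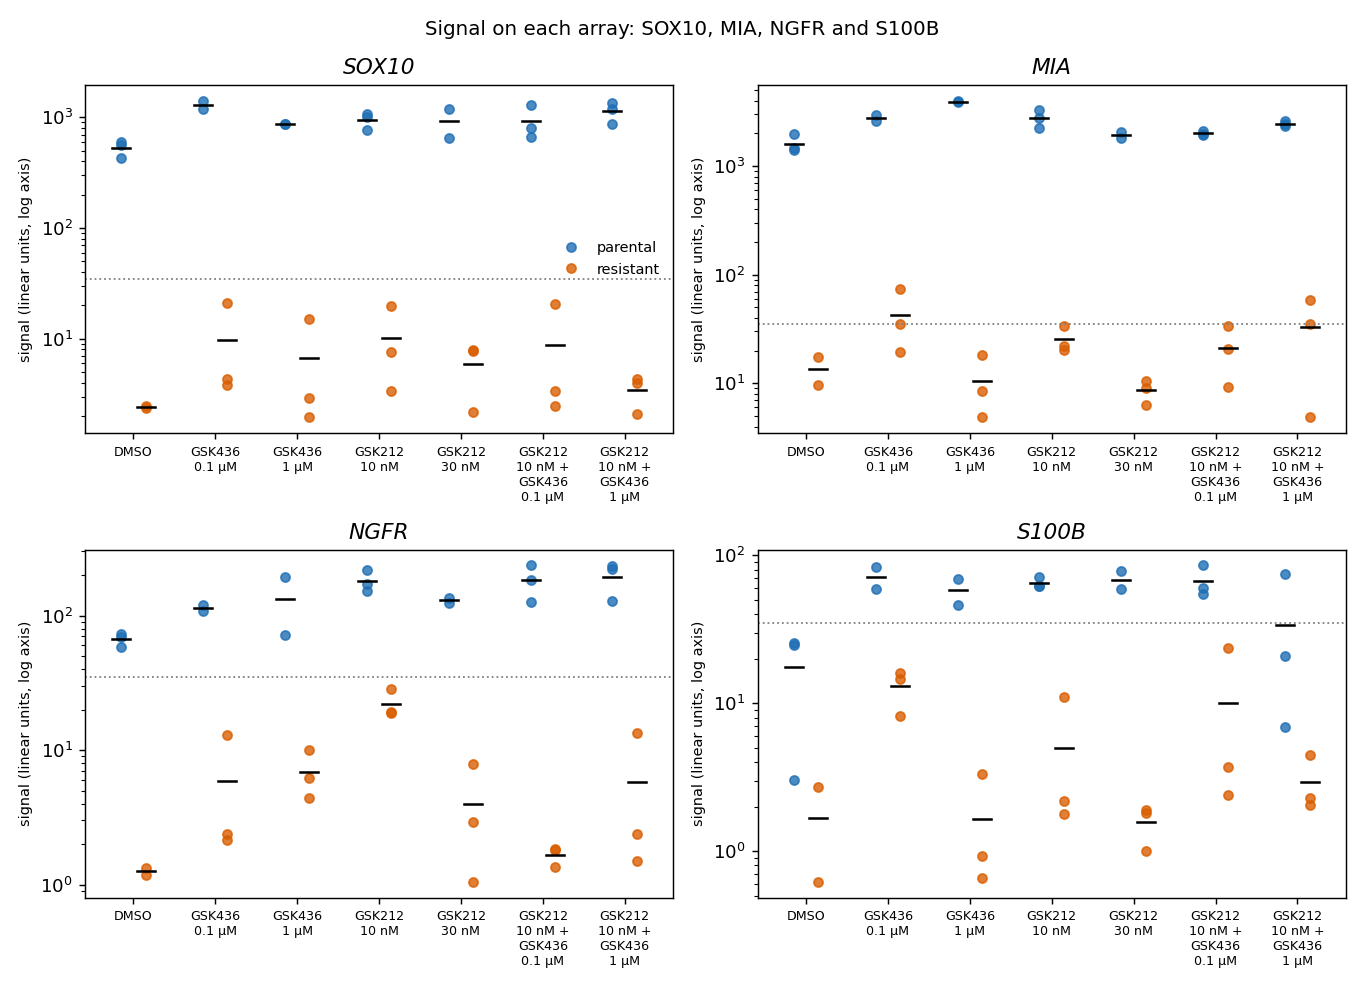
Signal of SOX10, MIA, NGFR and S100B on every array (linear units on a log axis) by treatment, for parental (blue, 18 arrays) and resistant cells (orange, 20 arrays); points are arrays, black bars are arithmetic group means and the dotted line is the filter level of 34.88. On the probe sets shown, SOX10, MIA and NGFR do not overlap between the lines, while 3 parental S100B arrays lie within the resistant range of 0.62 to 23.8. The probe set that stood for SOX5, not shown here, does not overlap either (gap of 1.08-fold). How many of all genes separate in this way was not counted, so nothing is read from it.

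NGFR, the neurotrophin receptor, was moderately expressed in parental cells and below the filter in the clone. Parental DMSO arrays read 69.5, 58.1 and 73.4 and resistant DMSO arrays 1.18 and 1.34. With drug the parental arrays ran from 71.3 to 235 and the resistant ones from 1.05 to 28.3, which left a gap of 2.06-fold between the lines. The mean difference with drug was -4.17 ± 0.22 and the DMSO difference -4.10 ± 0.57. NGFR passed the filter on the 18 parental arrays alone, and the mean ran from -4.99 to -2.13 over 13 other settings. With the resistant values raised to the filter level, parental NGFR with drug was at least 4.23-fold higher.

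S100B was low in both lines and its separation was less complete. Parental DMSO arrays read 24.6, 25.5 and 3.04 and resistant ones 2.72 and 0.62. With drug the parental arrays ran from 6.87 to 85.5 and the resistant ones from 0.66 to 23.8, and 2 of the 3 parental arrays with the higher combination (20.9 and 6.87) lay within the resistant range. The mean difference with drug was -3.07 ± 0.29, against -1.93 ± 0.76 in DMSO, and ran from -4.03 to -1.21 over 12 other settings. S100B exceeded the filter level on 13 parental and 0 resistant arrays with drug, so it too was tested through the line in which it is higher. Its line differences and their calls are therefore a description. With the resistant values raised to that level, parental S100B with drug was at least 1.56-fold higher. The differences with 0.1 µM GSK436 (-2.25 ± 0.76, adjusted p = 0.024) and with the higher combination (-2.21 ± 0.68, adjusted p = 0.0154) lost their call in limma after quantile normalization or centring (adjusted p from 0.056 to 0.134). The first was also lost without replicate 2 or 3 of the parental or replicate 1 of the resistant group (0.0737 to 0.139), and the second without replicate 1 of either group (-1.43, 0.165, and -2.10, 0.0512). The second S100B probe set stayed below 45.2 on every array and did not pass the filter.

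Across the 9 members, the 6 line differences with drug held 40 calls out of 54, of which 39 were lower in the clone. SOX10, NGFR and S100B passed the filter through parental arrays alone, and TFAP2B only with its parental arrays. The share of these 4 members in the counts is a description. The DMSO difference between the same lines was known when the list was chosen, so the counts are not independent of that choice. A gene was called when its adjusted p was below 0.05 and its difference at least 1 on the log2 scale. With 0.1 µM GSK436, 7 members were lower and 1 higher, where 19.1% of all genes tested were called; with 1 µM GSK436, 6 were lower, beside 28.4% of all genes. With 10 nM GSK212, 6 were lower beside 11.6%, and with 30 nM, 7 beside 5.82%. With the combinations at 0.1 and 1 µM GSK436, 6 and 7 were lower beside 6.36% and 13.4%. For the mean over the 6 treatments 6 members were lower beside 15.7%, and in DMSO 4 (SOX10, MIA, NGFR and SOX5) beside 3.64%, from which nothing is read because that contrast entered the choice. SOX10, MIA, NGFR, S100B, SOX2 and SOX5 were the 6 members lower in each of the 6 drug treatments.

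**Figure D2:**
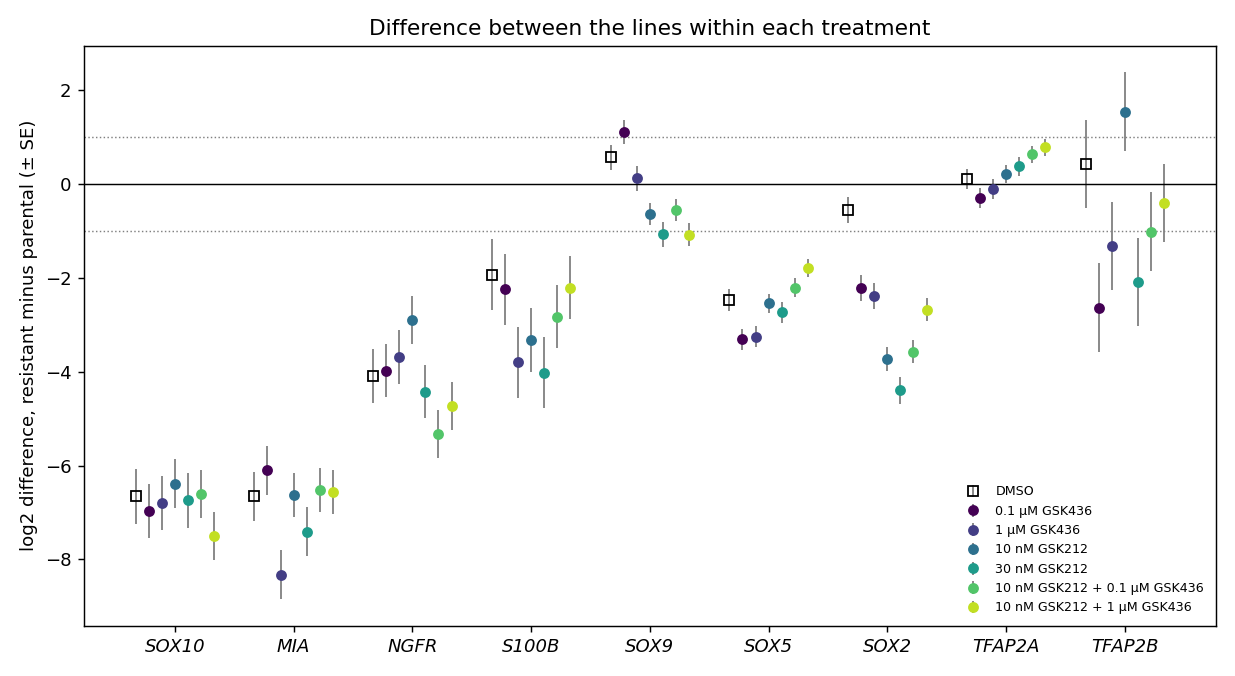
Log2 difference between resistant and parental cells (± SE) for the 9 members within each treatment; open squares are DMSO, given without a test, filled circles the 6 drug treatments, and dotted lines mark a difference of 1. SOX10 and MIA lie between -6.11 and -8.33 in every drug treatment, SOX2 drops from -0.56 in DMSO to between -2.22 and -4.40 with drug, and TFAP2A stays within 1 of zero.

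SOX2, the progenitor factor, differed little between the lines in DMSO and widely with drug. In DMSO the parental arrays read 70.0, 87.7 and 80.8 and the resistant arrays 43.1 and 64.2. In parental cells every drug treatment raised it, from 389 and 300.1 with 0.1 µM GSK436 and 381 and 355 with 1 µM, through 424, 479 and 418 with the higher combination and 607, 666 and 1103 with 10 nM GSK212, to 704, 1069 and 1109 with the lower combination and 1093 and 1059 with 30 nM GSK212. All 15 drug arrays of the parental line lay above its 3 DMSO arrays.

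In the resistant clone SOX2 stayed between 34.5 and 86.7 on all 18 drug arrays, a range that covers its DMSO arrays. The parental rise was 2.07 ± 0.28 and 2.18 ± 0.28 at the rising doses of GSK436, 3.23 ± 0.25 and 3.72 ± 0.28 at those of GSK212, and 3.53 ± 0.25 and 2.43 ± 0.25 with the combinations (limma, adjusted p from 7.23e-13 to 1.27e-06). The mean parental change was 2.86 ± 0.19 (adjusted p = 1.32e-13). The mean resistant change was 0.26 ± 0.23 with a 95% interval from -0.21 to 0.73 (adjusted p = 0.653), and its sign turned to -0.01 after quantile normalization and -0.16 after centring.

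The difference between the lines in the SOX2 change was called in limma in 6 of 6 treatments. Each of these tests subtracts the DMSO difference between the lines, which was known when the list was chosen, so they are not independent of that choice. It was -3.17 ± 0.37 with 10 nM GSK212 (adjusted p = 1.42e-06), -3.84 ± 0.39 with 30 nM (1.69e-07) and -1.65 ± 0.39 with 0.1 µM GSK436 (0.00858). The share of all genes called in these 6 tests was 4.17% and 11% at the rising doses of GSK436, 1.9% and 0.792% at those of GSK212, and 0.786% and 1.05% with the lower and the higher combination; SOX2 was the only member called in 4 of them, and SOX9 joined it with 30 nM GSK212 and with the higher combination. Averaging all 4 SOX2 probe sets ended the 6 calls (-1.12 to -2.13, adjusted p from 0.0567 to 0.52), and centring ended those of both GSK436 doses and the higher combination (adjusted p 0.245, 0.13 and 0.11). Leaving out replicate 2 of parental 0.1 µM GSK436 or of resistant DMSO ended the call with that dose (-1.47, adjusted p = 0.0702, and -1.38, 0.0763).

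Of the 4 probe sets, 2 were dim, with mean signals of 16.8 and 22.1 over all arrays. The other bright SOX2 probe set read 39.1, 26.3 and 37.6 in parental DMSO, 139 to 425 with drug, and 3.94 to 54.8 in the resistant line with drug. Its mean parental change was 2.71 ± 0.41 (limma over probe sets, adjusted p = 3.75e-06) and its mean resistant change -0.43 ± 0.48 (adjusted p = 0.807). SOX2 lies inside an intron of the noncoding gene SOX2-OT, and signal from that transcript was not tested.

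The order of the parental SOX2 group means was 30 nM GSK212 (1076 ± 23.8, SD, n = 2), the lower combination (961 ± 223, n = 3), 10 nM GSK212 (792 ± 271, n = 3), the higher combination (440.1 ± 33.6, n = 3), 1 µM GSK436 (368 ± 18.6, n = 2), 0.1 µM GSK436 (345 ± 62.9, n = 2) and DMSO (79.5 ± 8.91, n = 3). The 3 highest groups overlapped with their neighbours, as did both GSK436 doses, while the arrays of 10 nM GSK212 lay above those of the higher combination, these above 1 µM GSK436, and all drug groups above DMSO.

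**Figure D3:**
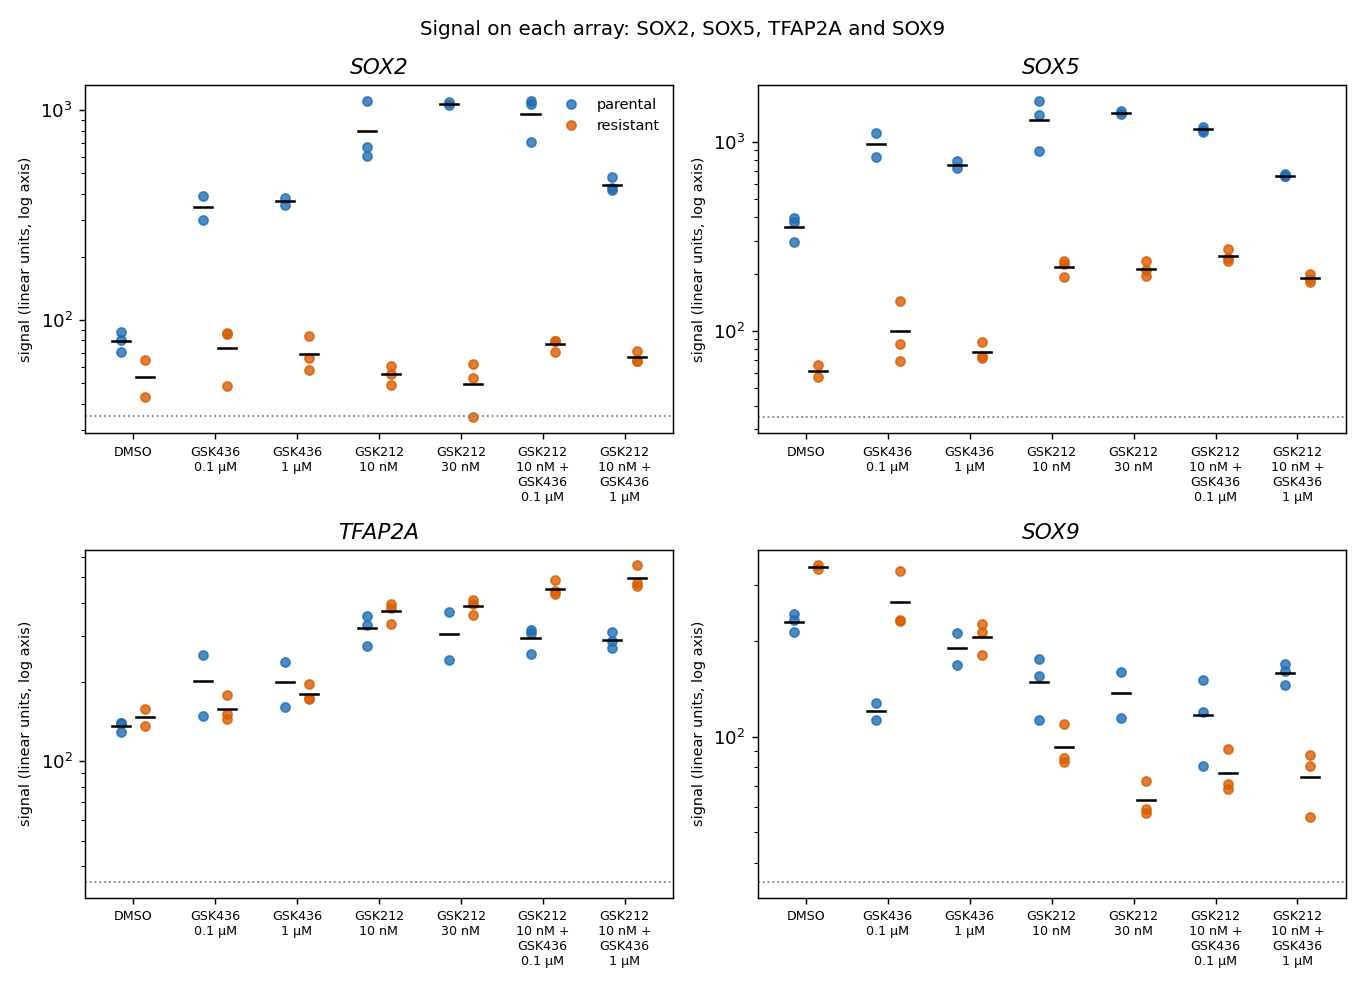
Signal of SOX2, SOX5, TFAP2A and SOX9 on every array (linear units on a log axis) by treatment, for parental (blue) and resistant cells (orange); points are arrays, black bars arithmetic group means and the dotted line the filter level of 34.88. SOX2 rises with every drug in parental cells and stays between 34.5 and 86.7 in the clone, while SOX9 falls and TFAP2A and SOX5 rise in the clone where GSK212 is present.

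SOX5, a SOX factor without a transactivation domain of its own, was lower in the clone in every treatment and rose with drug in both lines. In DMSO it read 396, 376 and 293 in parental and 66.0 and 56.6 in resistant cells. Parental arrays with drug ran from 655 to 1649, all above DMSO. Resistant arrays with GSK436 alone read 69.5, 84.7 and 144 at 0.1 µM and 86.8, 73.3 and 71.6 at 1 µM, and the 12 resistant arrays with GSK212 ran from 180.4 to 271.

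The SOX5 difference between lines was -2.64 ± 0.09 over the drug treatments (limma, adjusted p = 4.65e-23) and -2.47 ± 0.22 in DMSO. The DMSO difference was known when the list was chosen, so that with drug is not independent of that choice. The rise of SOX5 in parental cells was called in 5 of 6 treatments, from 1.10 ± 0.22 with 1 µM GSK436 to 2.01 ± 0.22 with 30 nM GSK212, and the higher combination missed the fold threshold at 0.91. In resistant cells it rose in the 4 treatments that held GSK212, by 1.78 ± 0.22, 1.75 ± 0.22, 1.98 ± 0.22 and 1.59 ± 0.22 with 10 nM, 30 nM, the lower and the higher combination (limma, adjusted p from 1.19e-07 to 3.58e-06). With GSK436 alone its change there was 0.61 and 0.32, not called.

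After centring, the mean SOX5 changes of 1.503 ± 0.156 in parental and 1.336 ± 0.184 in resistant cells became 0.94 and 0.92, below the fold threshold, with adjusted p of 0.000206 and 0.0107 in limma. The calls with 0.1 and 1 µM GSK436 in parental cells were lost on centring (adjusted p 0.0734 and 0.326), that with 0.1 µM also on averaging the probe sets (0.65, 0.205), and that with 1 µM also without replicate 3 of parental DMSO, where the change was 0.97. A second bright SOX5 probe set gave a mean parental change of 1.93 ± 0.35, a mean resistant change of 2.26 ± 0.41 and a line difference of -3.77 ± 0.20 (limma over probe sets, adjusted p 6.6e-05, 0.000649 and 8.83e-18). Of the dim ones, that at 3.40 to 66.5 showed no call in these 3 means, and that at 1.10 to 80.3 was called for the line difference alone (-1.45 ± 0.39).

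SOX9 moved the other way from SOX5 with drug, in both lines. In DMSO it read 338 and 346 in resistant cells and 233, 214 and 244 in parental cells. Resistant arrays read 232, 232 and 331 with 0.1 µM GSK436 and 180.4, 214 and 226 with 1 µM. With GSK212 they read 110, 83.2 and 85.9 at 10 nM, 72.4, 57.5 and 59.3 at 30 nM, 68.6, 71.0 and 91.1 with the lower and 80.9, 87.8 and 55.7 with the higher combination, so that every array with GSK212 lay below every array without it. In parental cells the drug arrays ran from 80.5 to 211.9 and lay below DMSO as well.

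SOX9 fell in resistant cells in the 4 treatments with GSK212, by 1.86 ± 0.27 at 10 nM, 2.40 ± 0.27 at 30 nM, 2.12 ± 0.27 with the lower and 2.18 ± 0.27 with the higher combination (limma, adjusted p from 7.01e-08 to 1.44e-05); with GSK436 alone the change was -0.38 and -0.73, not called. The parental changes ran from -1.001 to -0.28 and of the 6 the lower combination alone reached the threshold (-1.001 ± 0.237, adjusted p = 0.00201); without replicate 1 of that group it was -0.76, and without replicate 1 or 3 of parental DMSO -0.99 and -0.96, each short of the fold, as in 6 of 14 other settings (down to -0.63). The mean parental change was -0.69, not called. It was -0.83 after quantile normalization (limma, adjusted p = 0.00188), short of the fold, and -1.26 after centring (6.01e-05), where it was called. The second SOX9 probe set fell in resistant cells by 1.51 ± 0.25 on average (limma over probe sets, adjusted p = 0.000191).

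The fall of SOX9 was larger in resistant than in parental cells with 30 nM GSK212 (-1.64 ± 0.38, limma, adjusted p = 0.0196) and with the higher combination (-1.65 ± 0.36, 0.00983). Both calls were lost on centring (adjusted p 0.141 and 0.212) and without either resistant DMSO array (0.0731 and 0.121 at 30 nM, 0.0664 and 0.0585 for the combination). Quantile normalization (-1.47, limma, adjusted p = 0.092) and fitting only the groups compared (0.133) also ended the call at 30 nM, and leaving out arrays of actin ratio above 20 that for the combination (-1.53, 0.0616). The call at 30 nM was also lost without replicate 2 of parental DMSO, parental 30 nM or resistant 30 nM GSK212 (0.0504, 0.157 and 0.0521). Between the lines SOX9 was higher in the clone with 0.1 µM GSK436 (1.11 ± 0.27, adjusted p = 0.00166) and lower with 30 nM GSK212 (-1.08 ± 0.27, 0.00571) and with the higher combination (-1.08 ± 0.24, 0.00104). These calls were lost without replicate 3 of resistant 0.1 µM GSK436 (0.94), replicate 2 of parental 30 nM GSK212 (-0.84) and replicate 3 of the resistant higher combination (-0.89). They were also lost in 3 of 13, 6 of 14 and 5 of 14 other settings, with differences as near to zero as 0.94, -0.80 and -0.57 and adjusted p up to 0.0583, 0.209 and 0.171. Quantile normalization was among these settings for 30 nM GSK212 and the higher combination (-0.95 and -0.96). The mean line difference over drugs was -0.35 ± 0.10, below the fold threshold, and turned to 0.07 on centring.

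TFAP2A, the main AP-2 factor of the crest, was expressed at a like level in both lines in DMSO. It was called higher than in DMSO in each treatment with GSK212. In DMSO it read 140.3, 139.6 and 129 in parental and 137 and 158 in resistant cells. With GSK212 the parental arrays ran from 243 to 368 and the resistant arrays from 333 to 555. With GSK436 alone the values were 149, 255, 161 and 238 in parental cells and 144 to 197 in resistant cells. These parental values also all lay above DMSO, without a call, while the resistant ones overlapped with DMSO.

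TFAP2A rose in the 4 treatments with GSK212 in both lines (limma): in parental cells by 1.21 ± 0.19 at 10 nM, 1.12 ± 0.21 at 30 nM and 1.08 ± 0.19 and 1.07 ± 0.19 with the combinations, and in resistant cells by 1.32 ± 0.21, 1.39 ± 0.21, 1.61 ± 0.21 and 1.74 ± 0.21 in the same order. The line difference was called in 0 of 6 drug treatments (-0.30 to 0.78, adjusted p from 0.00239 to 0.698), as each fell short of the fold threshold. Yet resistant arrays lay above parental ones with the lower combination (431 to 487 against 255 to 316) and the higher (465 to 555 against 269 to 310). The mean line difference with drug was 0.26. It was 0.31 after quantile normalization (limma, adjusted p = 0.00368) and 0.68 after centring (7.07e-06). After centring, the parental rises were 0.36 to 0.92 with no call, and the resistant rises at 10 and 30 nM were 0.86 and 0.88 with no call, while those with the combinations were called. Averaging its probe sets also ended the parental calls (0.41 to 0.96, adjusted p from 0.0782 to 0.6) and those at 10 and 30 nM in the clone (0.0905 and 0.102). Without replicate 3 of parental 30 nM GSK212 the rise there was 0.82, below the fold threshold. Of the other TFAP2A probe sets, 1 lay at 2.52 to 49.0 without a call in the 3 mean comparisons and the other did not pass the filter.

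TFAP2B, its close relative, was at the floor of the array in both lines. The 3 TFAP2B probe sets exceeded the filter level on 4 to 7 of 38 arrays. The probe set that stood for the gene ran from 2.65 to 81.2 in parental and from 1.46 to 46.5 in resistant cells. It exceeded the filter level on 3 parental and 1 resistant array. It thus passed the filter only with its parental arrays, so a lower level in the clone is a description. The one call of TFAP2B, lower in the clone with 0.1 µM GSK436 (-2.63 ± 0.94, limma, adjusted p = 0.0326), was lost without replicate 2 of parental 0.1 µM GSK436 (-2.00, adjusted p = 0.261) and without replicate 1 or 3 of resistant 0.1 µM GSK436 (0.12 and 0.101). The mean line difference of -0.99 ± 0.36 lay just under the fold threshold, and leaving out 1 array moved it past that in 14 of 33 cases, to between -1.02 and -1.13. No drug change of TFAP2B was called in either line.

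**Figure D4:**
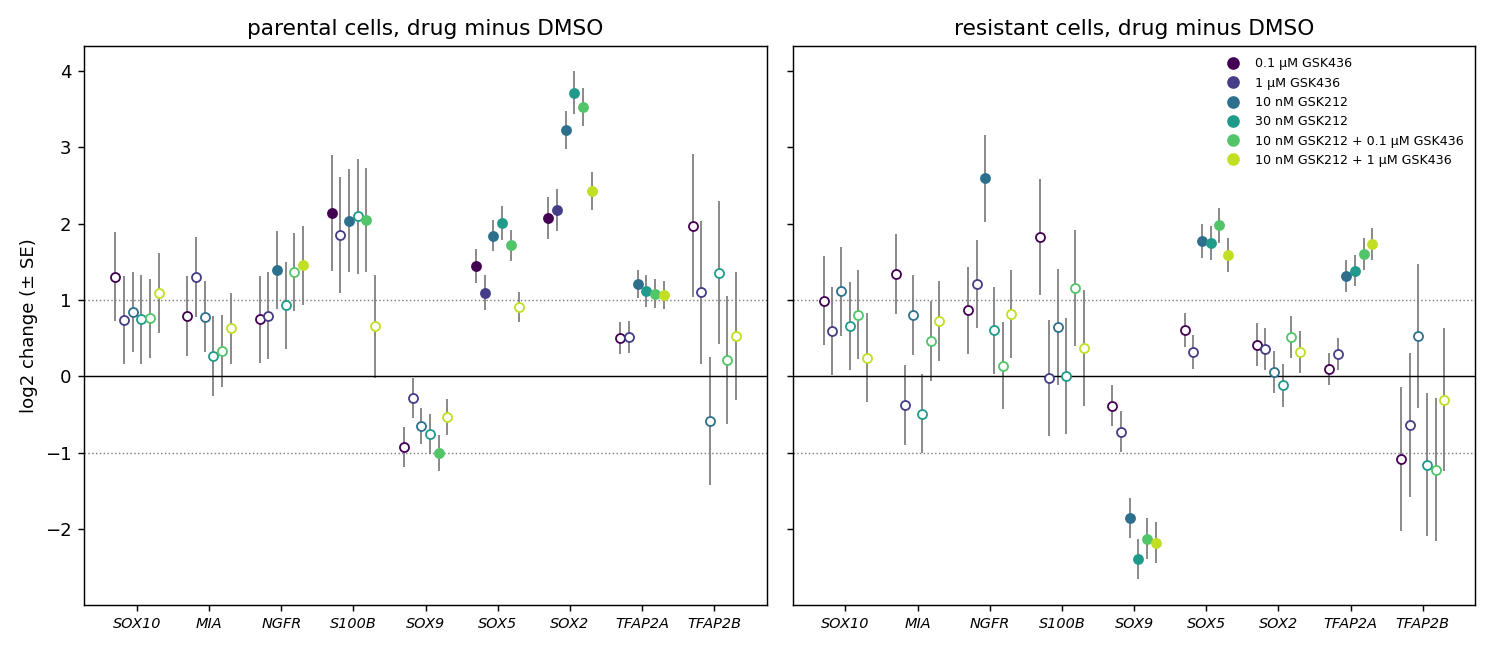
Log2 change against DMSO (± SE) of the 9 members with each of the 6 drug treatments in parental (left) and resistant cells (right); filled points were called, open points were not, and dotted lines mark a change of 1. SOX2 rises by 2.07 to 3.72 in parental cells and stays within 0.52 of zero in the clone, and SOX9 falls by 1.86 to 2.40 in the clone with GSK212.

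SOX10 and MIA had 0 called drug changes in either line. The 6 changes of a line share its DMSO arrays, which also gave the contrast known when the list was chosen. SOX10 read 1414 and 1192 in parental cells with 0.1 µM GSK436, 879 and 871 with 1 µM, 1006, 1077 and 770.3 with 10 nM GSK212, 654 and 1187 with 30 nM, 1307, 665 and 803 with the lower and 1363, 871 and 1182 with the higher combination. All 15 lay above the DMSO arrays, yet the spread within groups was wide and the mean change of 0.91 ± 0.40 was not called (limma, adjusted p = 0.081). It reached 1.05 with an adjusted p of 0.0432 after quantile normalization and 0.35 (0.537) after centring. Over the 18 parental arrays SOX10 correlated with the log2 actin ratio at r = 0.816 (a description over arrays of 7 groups), and with that ratio in the limma fit the change was 0.59 (adjusted p = 0.307). The group means ran from 1303 ± 157 (SD, n = 2) with 0.1 µM GSK436 to 875 ± 5.24 (n = 2) with 1 µM, and each neighbouring pair of drug groups in that order overlapped.

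In the resistant clone SOX10 read 4.32, 3.81 and 21.0 with 0.1 µM GSK436, and 1.96, 15.1 and 2.94 with 1 µM. With 10 nM GSK212 it read 7.53, 3.40 and 19.8. No drug change of SOX10 was called there (0.25 to 1.12; limma, adjusted p from 0.365 to 1). MIA was called with no drug in either line: its parental changes ran from 0.27 to 1.30 and its resistant ones from -0.49 to 1.34. The mean resistant MIA change of 0.41 ± 0.43 was -0.001 after quantile normalization and -0.007 after centring.

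NGFR rose in parental cells with 10 nM GSK212 (1.39 ± 0.51, limma, adjusted p = 0.0485; 152, 220 and 172) and with the higher combination (1.45 ± 0.51, 0.0312; 222, 232 and 127), and on average by 1.11 ± 0.40 (0.029). The first was lost without any 1 of the 6 arrays compared (adjusted p from 0.0727 to 0.164), the second without replicate 1 or 2 of either group (0.0702 to 0.0998), and the mean without any 1 of the 3 DMSO arrays or replicate 2 of 1 µM GSK436 (0.0511 to 0.131). All 3 were also lost after quantile normalization or centring (adjusted p from 0.0879 to 0.328).

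In the clone NGFR rose with 10 nM GSK212 (19.0, 18.8 and 28.3 against 1.18 and 1.34 in DMSO; 2.59 ± 0.57, limma, adjusted p = 0.0042). All 3 values lay below the filter level, the rise was not seen at 30 nM (7.88, 1.05 and 2.90; 0.61 ± 0.57, not called), and without replicate 1 or 2 of resistant DMSO its adjusted p was 0.0509 or 0.0587. With the pseudocount at the median signal it was 0.65 (adjusted p = 0.184).

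S100B rose in parental cells with 0.1 µM GSK436, 10 nM GSK212 and the lower combination by 2.14 ± 0.76, 2.04 ± 0.68 and 2.05 ± 0.68 (limma, adjusted p 0.0339, 0.0273 and 0.0296), and on average by 1.80 ± 0.53 (0.00777). Parental S100B exceeded the filter level on 13 arrays with drug and on 0 in DMSO. It was thus tested through the arrays in which it is higher, so these rises are a description. Without replicate 3 of parental DMSO, the array at 3.04, the 3 changes were 1.39, 1.29 and 1.30 and the mean 1.05, none called (adjusted p from 0.177 to 0.23). The calls were also lost after quantile normalization (0.0812 to 0.208) or centring (0.0753 to 0.206), and the 3 single ones without several of the drug arrays: both of 0.1 µM GSK436 and each of the 3 of the other groups (0.0501 to 0.163). In the clone the S100B change ran from -0.02 to 1.82 with no call.

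Read over all members, the parental line held 21 calls in its 6 drug changes and the clone 13. S100B passed the filter through parental arrays with drug alone, so its share of the parental calls is a description. In parental cells 3 members rose with 0.1 µM GSK436 (17.8% of all genes called) and 2 with 1 µM (19.5%). With 10 nM GSK212 5 rose (11.7%) and with 30 nM 3 (9.89%). With the lower combination 4 rose and 1 fell (10.6%) and with the higher 3 rose (17%), and for the mean of the 6 treatments 4 rose (15.5%).

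In resistant cells no member was called with 0.1 µM GSK436 (0.00554% of all genes) or with 1 µM (0.0775%). With 10 nM GSK212 3 rose and 1 fell (2.77%), and with 30 nM 2 rose and 1 fell (4.31%). The lower and the higher combination had 2 up and 1 down each (4.86% and 6.52%), as did the mean of the 6 treatments (2.39%).

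Adding the second drug or raising the dose gave few called members. In parental cells the lower combination held more SOX2 than 0.1 µM GSK436 alone (1.46 ± 0.28, limma, adjusted p = 0.00589; 1.26% of all genes called), a call lost without replicate 3 of either group (1.27, adjusted p = 0.0605, and 1.34, 0.0558) and with the actin ratio in the fit (1.12, 0.071). No member was called between that combination and 10 nM GSK212 (0.00554% of genes), or between the higher combination and 1 µM GSK436 (0.0166%) or 10 nM GSK212 (0.343%), where SOX5 was 0.94 lower (adjusted p = 0.0147), short of the fold threshold. No member was called between the GSK436 doses (0.255%) or the GSK212 doses (0% of genes).

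In resistant cells, adding 10 nM GSK212 to GSK436 changed SOX9, SOX5 and TFAP2A. Against 0.1 µM GSK436 alone (4.62% of all genes called) the combination had SOX9 lower (-1.74 ± 0.24), SOX5 higher (1.37 ± 0.20) and TFAP2A higher (1.504 ± 0.187), and against 1 µM alone (5.53%) the 3 differences were -1.45 ± 0.24, 1.27 ± 0.20 and 1.45 ± 0.19 (limma, adjusted p from 5.78e-07 to 3.81e-05). The SOX5 difference at 0.1 µM was 0.83 (adjusted p = 0.158) when its probe sets were averaged. Adding 0.1 or 1 µM GSK436 to 10 nM GSK212 gave no called member (0.00554% and 0.559% of genes), nor did the higher dose of GSK436 (0.111%) or of GSK212 (0% of genes). NGFR was lower without a call in the lower combination than with 10 nM GSK212 alone (-2.45 ± 0.51, 95% interval -3.51 to -1.40, limma, adjusted p = 0.124). It was likewise lower in the higher combination (-1.78 ± 0.51, -2.83 to -0.72, limma, adjusted p = 0.0744) and at 30 nM (-1.99 ± 0.51, -3.04 to -0.93, adjusted p = 0.476), all on arrays below the filter level. SOX9, for example, differed by -0.27 and -0.32 between the combinations and 10 nM GSK212, with 95% intervals from -0.75 to 0.22 and from -0.81 to 0.17.

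Over the 14 group means, the genes most like SOX10 were COL9A3 (r = 0.998), LINC02249 (0.99), HLA-DRB4 (0.989), ELAVL2 (0.988) and NDN (0.987), and the most opposite were MAGEB2 (-0.993), PAGE1 (-0.988), CDA (-0.988), KISS1 (-0.984) and ZNF667-AS1 (-0.984). These correlations describe groups that fall into 2 lines and chiefly restate that split. COL9A3, a collagen chain gene, ran from 406 to 1512 in parental and from 1.22 to 29.0 in resistant cells, and KISS1, a peptide precursor gene, from 3.40 to 36.6 and from 347 to 1701. Among the members, r with SOX10 was 0.99 for MIA, 0.968 for NGFR, 0.918 for S100B, 0.903 for SOX5, 0.875 for SOX2, 0.497 for TFAP2B, 0.122 for SOX9 and -0.172 for TFAP2A.

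Of 20 listed targets and partners of SOX10, 17 were measured, and with drug 9 were lower, 1 higher and 7 not called in the clone (median -1.01, against -0.26 for all genes); over the other settings 5 to 9 were lower. This and the following counts of listed genes stand beside 15.7% of all genes called between the lines with drug, 15.5% in the parental and 2.39% in the resistant drug means. They are descriptions, and a share near these is no result about a list. The lower ones included COL9A3 (-6.98 ± 0.21), ERBB3, a neuregulin receptor of glia and melanocytes (-5.10 ± 0.21), NES, the progenitor filament nestin (-4.16 ± 0.23), and TNFRSF19 (-3.03 ± 0.25). On resistant arrays the medians of COL9A3, NES and TNFRSF19 were 4.45, 4.2 and 18.6, so these sizes rest on the floor. COL9A3 reached at most 29.0 there and passed the filter through parental arrays alone. MITF, the main melanocyte factor, was higher (1.38 ± 0.09). With drug 4 of the list rose in parental cells (median 0.64, all genes 0.31), led by ERBB3 at 2.16 ± 0.38, and ERBB3 alone rose in resistant cells (2.08 ± 0.44); after centring 1 rose and 3 fell in parental cells.

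**Figure D5:**
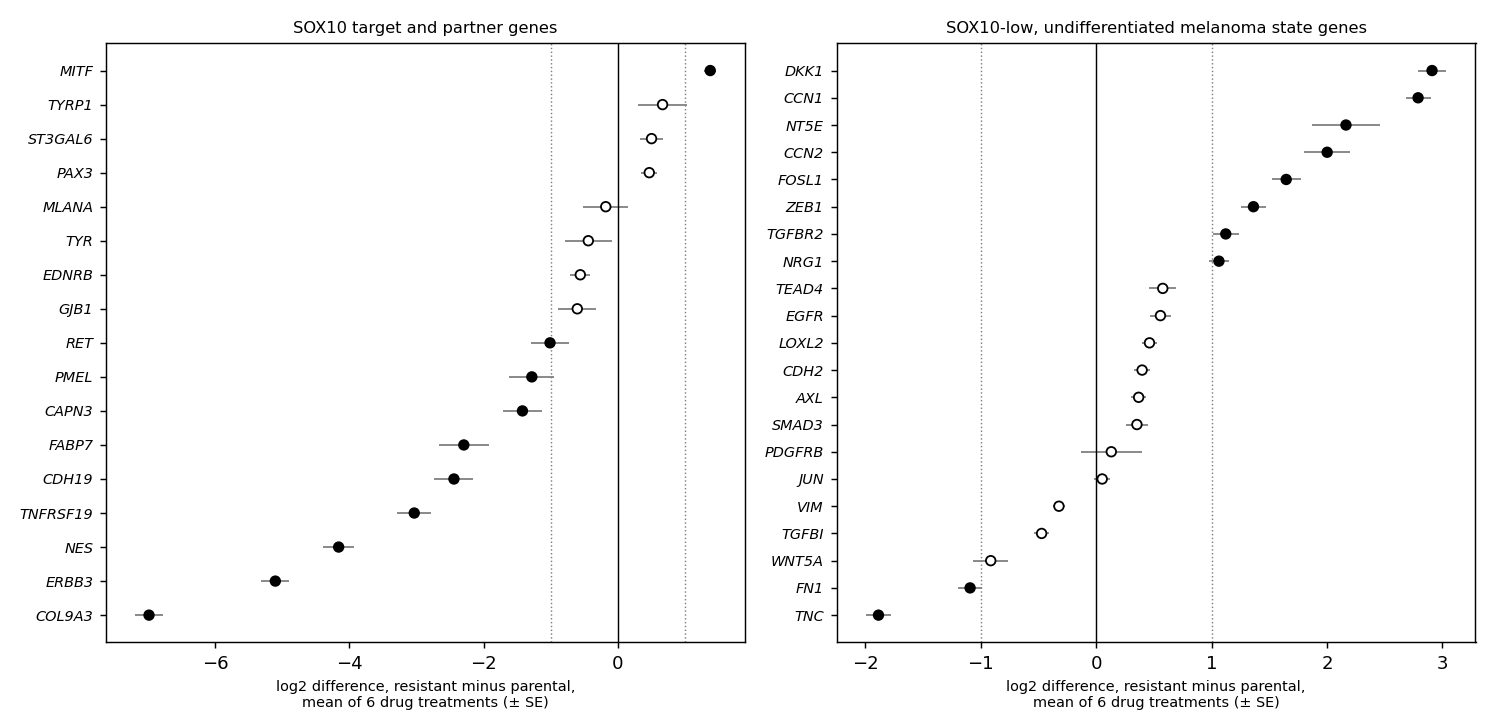
Log2 difference between resistant and parental cells, as the mean of the 6 drug treatments (± SE), for the measured SOX10 target and partner genes (left, 17 genes) and genes of the SOX10-low, undifferentiated melanoma state (right, 21 genes); filled points were called and dotted lines mark a difference of 1. The 9 called lower target genes lie below -1 with COL9A3 at -6.98, and 8 genes of the other list lie above 1 with DKK1 at 2.91. In that list 2 genes were called lower.

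Genes of the undifferentiated melanoma state in which SOX10 is low were more often higher than lower in the clone, 8 against 2 of 21 measured (median 0.46, all genes -0.26). DKK1, a WNT inhibitor (2.91 ± 0.13), the matricellular genes CCN1 (2.79 ± 0.11) and CCN2 (2.00 ± 0.20), and NT5E, the surface enzyme CD73 (2.17 ± 0.30), led the higher ones. Other genes of the list went the other way. Over all arrays of a line the median signal was 663 in parental and 173 in resistant cells for TNC, 274 and 140 for FN1, and 221 and 108 for WNT5A. AXL, often used to mark that state, differed by 0.37 and was not called. With drug 10 of the 21 fell in parental cells (median -0.79), among them NT5E by 3.69 ± 0.53 and FOSL1 by 3.35 ± 0.23, and in resistant cells 3 fell and 1 rose, PDGFRB at 2.64 ± 0.55.

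The other crest specifiers split. Of 23 measured, with drug 6 were lower and 3 higher in the clone (median 0.06): FOXD3 (-3.17 ± 0.28), SNAI1 (-2.45 ± 0.26) and ID2 (-1.52 ± 0.10) were lower and ZIC2 (1.62 ± 0.12) higher. In parental cells 8 rose with drug and 1 fell (ID2 3.33 ± 0.18, FOXD3 2.49 ± 0.49, SNAI1 2.39 ± 0.47, TFAP2C -2.30 ± 0.17); after centring 5 rose and 6 fell. In resistant cells ID2 (1.54 ± 0.21), ID3 (1.21 ± 0.22) and SNAI2 (1.05 ± 0.29) rose.

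Among 15 measured Schwann cell and glial genes, 7 were lower and 1 higher in the clone (median -0.94), with L1CAM, a neural adhesion molecule, at -4.65 ± 0.13 and GAP43 at -2.53 ± 0.20. L1CAM rose with drug in both lines (2.98 ± 0.23 and 2.66 ± 0.27). In parental cells 5 of the list rose (3 after centring) and in resistant cells 3.

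Of 12 further SOX genes measured, 3 were lower and 1 higher in the clone with drug (SOX4 -1.43 ± 0.10, SOX12 -1.35 ± 0.21, SOX13 -1.23 ± 0.24 and SOX11 1.11 ± 0.20), the lower count falling to 1 after centring, beside 15.7% of all genes called in either direction. SOX4 (1.74 ± 0.18), SOX17 (1.68 ± 0.64) and SOX12 (1.58 ± 0.37) rose with drug in parental cells, and none did in resistant cells. SOX17 ran from 1.38 to 44.3 on parental arrays with a median of 22.7, so its rise rests on low signals. None of the 3 further AP-2 genes was called between lines; TFAP2C fell in parental cells and TFAP2E rose in resistant cells (2.34 ± 0.58).

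Markers of cell types were read for the melanoma cells and for others the cultures could hold. Of 5 measured melanocyte markers only MITF exceeded the filter level on most arrays of either line, and MLANA, PMEL, TYR and TYRP1 did not, each reaching at most 78.2 on any array. The summed level of the 5 markers ran from 387 to 788 in parental and from 968 to 1737 in resistant cells. MITF made up most of it, at 283 to 734 and 864 to 1679. The medians of MLANA (8.7 against 20.3), PMEL (7.56 against 28.5) and TYR (16.0 against 24.4) were lower in resistant than in parental cells. That of TYRP1 was higher (17.1 against 8.78), all 4 at low signals. Of 7 keratinocyte markers KRT5, KRT14 and KRT10 exceeded that level on most parental arrays and KRT10 alone on most resistant ones, with sums of 3161 to 8288 and 1756 to 3845. KRT14 differed by -7.42 ± 0.26 in the clone with drug and rose by 3.75 ± 0.46 with drug in parental cells. Fibroblast markers summed to 134 to 839 in parental cells and 81.4 to 554 in resistant cells; LUM and COL1A1 rose with drug in both lines. Leukocyte and endothelial markers summed to at most 444 and 239.9 on any array. The part of other cells in the members' values was not tested.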

How the data were processed

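The 38 arrays hold linear signal intensity values, which the authors deposited per probe set; MAS5 is the tool named in the submitters' processing notes, with version and settings not given in the sources used here. Of 54675 probe sets, 41097 name 1 gene, 1801 several and 11777 none; the probe set with the highest mean log2 value stood for a gene. Genes with a signal above 34.88 on at least 2 arrays were kept (18063). On log2(signal + 2.8), 14 group means were fitted with limma 3.58.1 (R 4.3.3; eBayes with trend, 24 residual degrees of freedom), giving 40 comparisons, each with Benjamini-Hochberg adjusted p over all genes; a call needed an adjusted p below 0.05 and a log2 difference of at least 1. A second limma fit ran over 35888 probe sets. The number of arrays limits the precision.

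All 9 members were described, with the genes whose 14 group means correlated most with SOX10 (5 at either end) and, of each list, called genes with the largest differences. AXL, MITF, TNC, FN1 and WNT5A were named after their values were seen. Members and lists were chosen with earlier results of these data known. Replicate numbers did not pair the arrays: deviations of same-numbered arrays of a line correlated at -0.002 on average (105 pairs, -0.325 to 0.157). Scripts were tested on simulated data. Alternatives were quantile normalization, centring, 3 other pseudocounts, other filters, averaging a gene's probe sets, variance without trend, only the groups compared, a replicate block, the actin ratio as covariate or limit, array weights, and leaving out each array. Promoter sequences and current symbols came from RefSeq (GRCh38.p14). Python 3.11.15, pandas 2.3.3, numpy 2.4.6 and matplotlib 3.10.9 were used.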

Additional observations from a re-analysis of the deposited data

Results flagged for a closer look

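The change of SOX2 with drug differed between the lines by a test of that difference in each of the 6 treatments (limma, resistant minus parental change, log2): -1.654 with 0.1 µM GSK436 (adjusted p = 0.00858), -1.817 with 1 µM (0.00202), -3.166 with 10 nM GSK212 (1.42e-06), -3.835 with 30 nM (1.69e-07), -3.01 with the lower combination (7.48e-06) and -2.115 with the higher (0.000923). The change of SOX9 differed with 30 nM GSK212 (-1.642, adjusted p = 0.0196) and with the higher combination (-1.646, 0.00983). The 6 tests of a gene share the 5 DMSO arrays and subtract the DMSO difference between the lines, which was known when the list was chosen, so they are not independent of that choice. No array of a group of 4 or more could be tested for standing apart, since no group had more than 3.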

How the results depend on the processing

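The line differences of MIA, SOX2 and SOX5 with drug, the rises of SOX2 in parental cells and the falls of SOX9 with GSK212 in resistant cells were called under every alternative run. Members called, against 21 in parental drug changes, 8 differences between lines in drug change, 1 and 6 combination and dose comparisons in parental and resistant cells, and 4 and 3 in the parental and resistant drug means, were as follows. Centring gave 13 parental drug changes, 3 differences, 2 parental combination comparisons, and 2 and 1 in the means; a pseudocount at the median gave 2 in the parental mean; averaging probe sets gave 4 differences and 0 parental combination comparisons; the actin covariate gave 0 of these; and array weights gave 13 resistant combination comparisons. Genes called (2831 between lines, 2793 parental, 432 resistant) became 1366, 1448 and 195 with the pseudocount at the median, 1849 between lines with the filter at the 75th percentile, 4229 parental with array weights and 242 resistant with quantile normalization. Centring moved the share of higher calls from 32.3% to 74.8% between lines, from 71% to 20.9% in parental and from 80.6% to 31.3% in resistant cells.

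Leaving out 1 array gave 5 to 9 differences between lines, 2 to 4 members in the parental mean, 0 to 2 parental combination comparisons and 195 to 483 genes in the resistant mean; resistant DMSO replicate 2 gave the 5 and the 195, parental DMSO replicate 3 the 2 members. Signs turned for resistant mean changes of MIA (-0.001 with quantile normalization, -0.007 centred), SOX2 (-0.012, -0.158, and -0.014 to 0.531 leaving out 1 array) and TFAP2B (0.169 averaging probe sets), and for the SOX9 line difference (0.065 centred); the cause was not tested. With the replicate block the counts of member calls were 40, 20, 13, 8, 1 and 6, and the lost call was NGFR with 10 nM GSK212 in parental cells (adjusted p = 0.0505, limma). Low signals limit S100B, TFAP2B and the resistant levels of SOX10, MIA and NGFR. Among listed genes they limit, for example, SOX17 and S100A12 in both lines. They also limit the resistant levels of COL9A3, FOXD3, SNAI1, NES, TNFRSF19, GAP43, KRT14 and S100P.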

Other observations

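Relatives of S100B and NGFR were also read, as a description beside 15.7% of all genes called between the lines with drug, 15.5% in the parental and 2.39% in the resistant drug means. Of 15 measured S100 genes, 9 were lower in the clone with drug and 0 higher (median -1.06, all genes -0.26; 4 lower after centring), led by S100P (-5.47 ± 0.28) and S100A4 (-4.25 ± 0.14). In parental cells S100P (5.48 ± 0.49), S100A12 (2.30 ± 0.60) and S100A1 (1.43 ± 0.53) rose with drug, and in resistant cells S100A3 did (1.19 ± 0.32), a call lost after centring.

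Of 12 measured neurotrophin ligands and receptors, BDNF was higher in the clone with drug (2.17 ± 0.14) and MAGED1 (-2.07 ± 0.08), NTRK2 (-1.26 ± 0.34) and SORCS2 (-1.19 ± 0.30) were lower, 1 of them after centring. In parental cells NTRK2 (2.16 ± 0.61), MAGED1 (1.77 ± 0.14) and NTRK3 (1.15 ± 0.37) rose with drug, and 0 of the 12 were called in resistant cells. Of 15 ERK output genes, 14 fell in parental and 11 in resistant cells (limma; medians -2.80 and -1.74), and 6 were higher in the clone with drug; DUSP6, a phosphatase induced by ERK, fell by 6.08 ± 0.45 in parental and 4.05 ± 0.52 in resistant cells. SPRY4, a feedback inhibitor, fell by 2.61 ± 0.68 in parental cells and differed by -1.74 ± 0.80 in resistant cells, not called (adjusted p = 0.261, limma).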
